A study of Mus musculus with 6 samples.

Results

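The 7 genes described here, Tgfb1, Tgfb2, Tgfbr2, Smad3, Ski, Tmepai (now Pmepa1) and Zfhx1b (now Zeb2), belong to or act beside the transforming growth factor beta (TGF-beta) pathway. They were taken by gene symbol from the deposited expression sheet from among 4462 named genes, and are represented by 10 of 45037 probe sets, 3 for Tgfb2, 2 for Smad3 and 1 for each of the others. A probe set is the group of array probes that reports on 1 transcript or set of transcripts. Symbols were deposited for 5604 of these probe sets, all with an authors' p-value under 0.05 for the same comparison. The 7 genes were moreover chosen by these same measured values, the knockout against wild-type differences. Their differences between genotypes are therefore given as a description, with standard errors and without a test. Other probe sets of these genes carry no symbol in the sheet and were not analysed here.

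TGF-beta ligands are secreted in a latent form, and once released they bring together the type II receptor, encoded by Tgfbr2, and a type I receptor at the cell surface. The type I receptor phosphorylates SMAD2 and SMAD3, which join SMAD4 and enter the nucleus to regulate target genes. In mammary epithelium the pathway is known to restrain proliferation, and in carcinoma cells it can drive a change from epithelial towards mesenchymal form, in which the repressor ZEB2 takes part.

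The study profiled 6 cell lines from mouse mammary tumours, with 1 array for each. The 3 akt(+/+) lines, 31, 101 and 102, carry intact Akt1, and the 3 akt(-/-) lines, 72, 75 and 116, lack it. Lines of both genotypes grew out of tumours induced by MMTV-ErbB2, a transgene whose viral promoter works chiefly in the mammary epithelium. All were cultured in serum-containing medium with insulin, hydrocortisone, EGF and cholera toxin and kept for 25 passages, after a short plating step to reduce fibroblasts. Neither age nor the number of donor mice is in the labels, so p-values measure only the spread between these lines. Values are the authors' deposited log2 units, and every difference is knockout minus wild type.

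Akt1 itself, the deleted gene, fell from 9.94 ± 0.20 in wild type to 4.53 ± 0.13 in knockout on its brighter probe set (SD, n = 3; limma, adjusted p = 0.000405). Array medians lay between 5.41 and 5.50. Krt8, a luminal epithelial keratin, was at percentile 99.2 of the wild-type and 99.5 of the knockout arrays on average. Of 11 luminal marker genes 5 carried a symbol, with Krt8, Epcam and Cldn3 higher and Cdh1 and Cldn7 lower in the knockout lines, and of 10 fibroblast markers 0 did. Of 5 basal epithelial markers 2 carried a symbol, with Krt5 higher (0.60) and Itgb4 lower (-0.56) in the knockout lines. The named markers of endothelium (Plvap, -1.40, 1 of 5), leukocytes (Laptm5, -0.79, and Coro1a, -0.69, 2 of 8) and adipocytes (Lipe, -0.62, 1 of 4) were all lower in the knockout lines, as 6 of the 7 genes were. None of these markers passed the threshold of 0.05 on the adjusted p, and their part in the differences was not tested. Since symbols exist only where the authors' p was small, the absence of a named marker does not show whether such cells were present. In RNA from whole cultures, fewer cells of a type and less RNA per cell cannot be told apart. The signal of the bioC control probe sets was lower on the knockout arrays (7.62 to 7.96) than on the wild-type arrays (8.95 to 9.25). The gap between the 3' and 5' control probe sets of beta-actin was wider on them, at 3.44 to 3.53 against 2.88 to 3.29 log2 units. The same gap for Gapdh overlapped, at 3.18 to 3.89 in the knockout and 2.07 to 3.30 in the wild-type lines. The bioC signal and the beta-actin gap moved with genotype as the differences below do, and their part in those differences was not tested. The bioB control probe sets overlapped between genotypes (7.77 to 8.19 in the knockout and 7.80 to 8.08 in the wild-type lines).

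The promoters of the ligand Tgfb2, the receptor Tgfbr2, the signal transducer Smad3 and the repressor Zeb2 are printed because these genes stand for the successive steps of the pathway and did not all differ in 1 direction. Each window runs from 250 bases before to 50 bases after a transcription start in RefSeq (GRCm38.p6), 5′ to 3′ on the strand of the gene. Capitals mark the SMAD box GTCT or its reverse complement AGAC, which SMAD3 and SMAD4 can bind, and the E-box core CACCT or its reverse complement AGGTG, which ZEB proteins can bind.
Tgfb2, chr1:186705940-186706239, minus strand: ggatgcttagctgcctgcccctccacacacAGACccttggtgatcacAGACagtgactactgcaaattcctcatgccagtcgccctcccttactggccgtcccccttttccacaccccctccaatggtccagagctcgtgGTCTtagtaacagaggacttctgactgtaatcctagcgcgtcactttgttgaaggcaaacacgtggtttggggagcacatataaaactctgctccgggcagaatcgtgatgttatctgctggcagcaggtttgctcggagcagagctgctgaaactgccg
Tgfbr2, chr9:116175314-116175613, minus strand: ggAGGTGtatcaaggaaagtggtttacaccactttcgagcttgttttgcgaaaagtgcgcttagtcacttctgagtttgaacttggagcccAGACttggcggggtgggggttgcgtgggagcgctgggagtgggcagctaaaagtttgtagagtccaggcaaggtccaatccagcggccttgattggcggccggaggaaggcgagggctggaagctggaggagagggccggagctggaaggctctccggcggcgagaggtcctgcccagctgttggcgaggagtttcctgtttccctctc
Smad3, chr9:63757945-63758244, minus strand: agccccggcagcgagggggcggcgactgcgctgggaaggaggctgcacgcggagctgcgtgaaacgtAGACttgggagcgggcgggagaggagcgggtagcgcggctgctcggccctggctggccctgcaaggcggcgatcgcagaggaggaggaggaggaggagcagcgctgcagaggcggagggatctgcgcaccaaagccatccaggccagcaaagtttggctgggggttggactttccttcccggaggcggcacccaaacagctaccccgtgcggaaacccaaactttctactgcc
Zeb2, chr2:45117393-45117692, minus strand: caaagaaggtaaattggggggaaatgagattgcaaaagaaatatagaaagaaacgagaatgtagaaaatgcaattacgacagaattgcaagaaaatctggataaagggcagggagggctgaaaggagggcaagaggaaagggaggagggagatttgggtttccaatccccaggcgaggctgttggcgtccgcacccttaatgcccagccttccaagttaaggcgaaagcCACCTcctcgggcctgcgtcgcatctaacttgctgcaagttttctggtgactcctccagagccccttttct

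The Tgfb2 window held 3 SMAD boxes, beginning 220, 203 and 110 bases before the start. The windows of Tgfbr2 and Smad3 each held 1, beginning 159 and 183 bases before it. The Zeb2 window shown, which lies farthest upstream of the 4 listed for that gene, held no SMAD box and a CACCT beginning 21 bases before the start. The other 3 windows of Zeb2, of which a pair overlap each other, held 3, 3 and 2 SMAD boxes and 2, 1 and 0 CACCT cores. The SMAD boxes of the overlapping pair are the same 3 sites. Of all 32851 promoter windows in RefSeq's table, a share of 88.0% hold a SMAD box on either strand and 51.9% the CACCT core, so that single matches are common. The palindrome GTCTAGAC, which contains both forms of the SMAD box, was in 0.213% of all windows and in 0 of the 9 windows of 6 of these genes (Tgfb1, Tgfb2, Tgfbr2, Smad3, Ski and Zeb2). A match is a stretch of letters and was not measured as a binding site.

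The ligand gene Tgfb2 was higher in the knockout lines on all 3 of its named probe sets, and the other 6 genes were lower on theirs. Of the 10 probe sets, 3 were higher and 7 lower, where 53.7% of all probe sets with a symbol were lower. The median size of the difference was 0.81 log2 units, against 0.58 over the 5604 probe sets with a symbol and 0.20 over all 45037. As the genes were chosen by these same differences, this size and the 2-fold count below are a description only. The knockout and wild-type lines did not overlap on any of the 10. Over all probe sets 21.9% did not overlap (11.1% with knockout higher and 10.8% lower), and 99.9% of those that carry a symbol, so that the absence of overlap follows from how the genes came to be named. A difference of at least 2-fold was seen on 4 of the 10, the 3 of Tgfb2 and that of Pmepa1, against 3.6% of all probe sets (1.11% higher and 2.49% lower) and 16.5% of those with a symbol. That count was 1 without knockout line 72 and 2 without wild-type line 31.

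**Figure D1:**
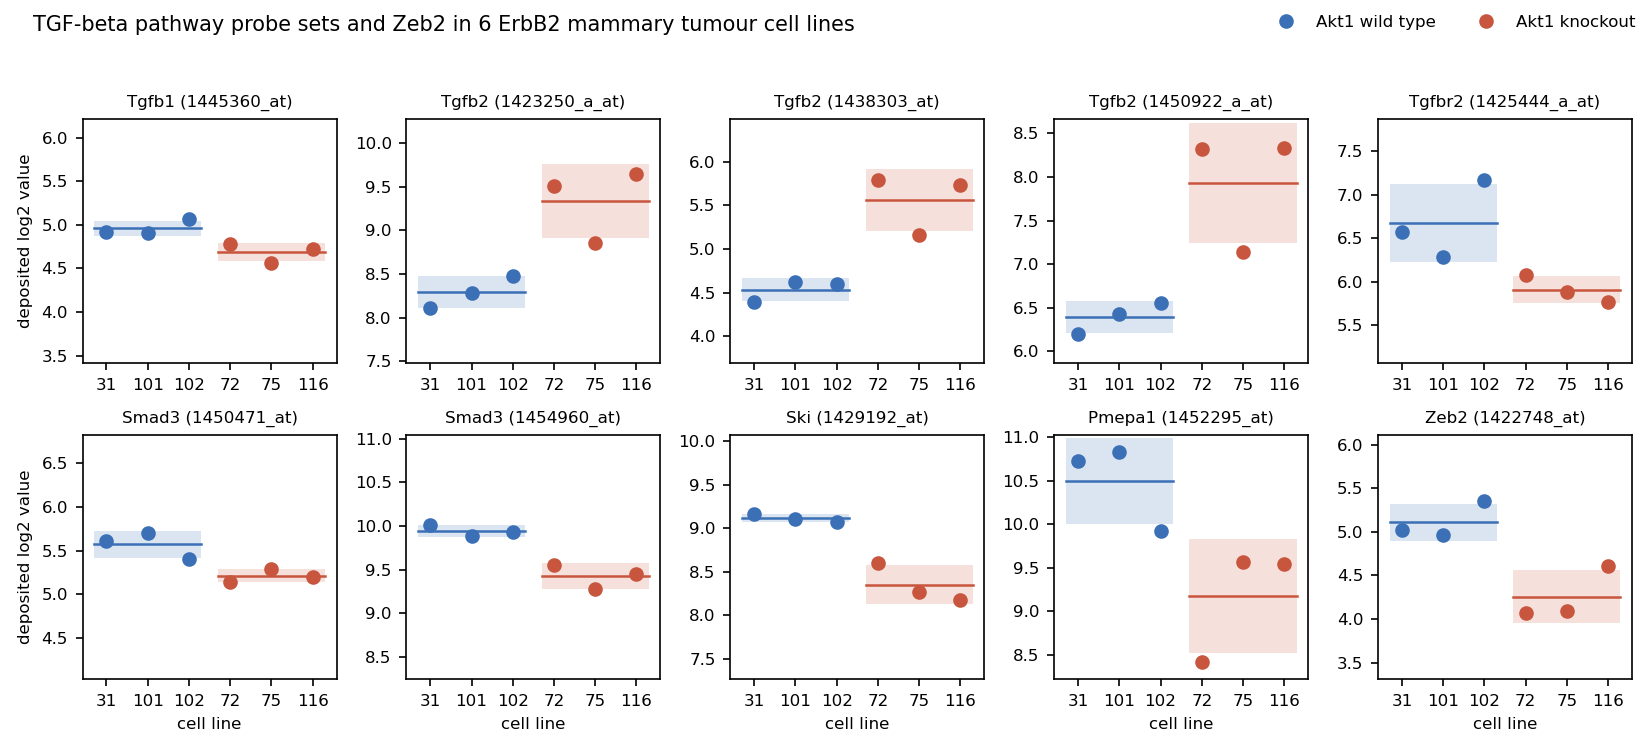
Deposited log2 values of the 10 probe sets in each of the 6 cell lines, with 1 panel per probe set; lines across are group means, shaded bands 1 SD (n = 3), and every panel spans the same number of log2 units. In each panel the wild-type and knockout lines are apart, with Tgfb2 higher and the other genes lower in the knockout lines.

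Tgfb2 encodes TGF-beta 2, 1 of the 3 mammalian TGF-beta ligands. On probe set 1450922_a_at it read 6.19, 6.42 and 6.55 in wild-type lines 31, 101 and 102, and 8.33, 7.13 and 8.34 in knockout lines 72, 75 and 116. The knockout mean was 1.54 ± 0.34 (SE) log2 units, or 2.91-fold, above the wild-type mean, with lines 72 and 116 nearly equal and line 75 well below them. The wild-type lines were close together (SD 0.18) and the knockout lines were not (SD 0.69).

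Probe set 1423250_a_at of Tgfb2 read 8.11, 8.28 and 8.48 in lines 31, 101 and 102, and 9.51, 8.85 and 9.65 in lines 72, 75 and 116. Its difference was 1.05 ± 0.24 (SE), or 2.07-fold. The order of the 6 lines was the same as on 1450922_a_at, from line 31 as the lowest to line 116 as the highest. On 1438303_at the values were 4.39, 4.62 and 4.60 in lines 31, 101 and 102, and 5.80, 5.16 and 5.73 in lines 72, 75 and 116, which differ by 1.03 ± 0.20 (SE), or 2.04-fold. This probe set was dimmer, at percentile 36.9 of the wild-type and 51.9 of the knockout arrays, and there lines 72 and 116 changed places, as did wild-type lines 101 and 102. On each of the 3 probe sets line 75 was the lowest knockout line, at 48.2%, 53.7% and 60.5% of the mean difference from wild type on 1450922_a_at, 1423250_a_at and 1438303_at. The probe sets of Tgfb2 report on the same gene and are not independent measurements. In the authors' deposited table of pathways Tgfb2 appears once, under pancreatic cancer, with a signed fold of 2.91, as the sole higher gene among the 10 listed for that pathway.

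Tgfb1 encodes TGF-beta 1, the ligand best known from epithelium and its surrounding tissue. On its named probe set 1445360_at it read 4.92, 4.90 and 5.06 in lines 31, 101 and 102, and 4.78, 4.57 and 4.72 in lines 72, 75 and 116. The difference of -0.27 ± 0.13 (SE) was the smallest in size among the 10, and the gap between the nearest lines of the 2 genotypes was 0.13. The probe set was dim, at percentile 43.2 of the wild-type and 39.1 of the knockout arrays. In size 38.2% of all probe sets differed by more. The 2 ligand genes thus differed in opposite directions, with a difference in Tgfb1 that was small beside that in Tgfb2.

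Tgfbr2, the type II receptor that binds the ligand first, read 6.57, 6.28 and 7.17 in lines 31, 101 and 102 on probe set 1425444_a_at. In lines 72, 75 and 116 it read 6.08, 5.88 and 5.77. The difference was -0.77 ± 0.24 (SE), a level 1.70-fold lower, and here the wild-type lines varied more (SD 0.45) than the knockout lines (SD 0.16). Wild-type line 101 lay 0.21 log2 units above knockout line 72, its nearest neighbour, whereas line 102 stood well above the other lines. The authors' p-value in the deposited table was 0.0497 for Tgfbr2 and 0.0498 for Pmepa1, just inside the limit of 0.05 below which symbols were given. Probe sets just outside that limit, at 0.05002 and 0.05006, had differences of 0.30, 0.36 and -0.64, of a size like those just inside it (-0.37, 0.49 and -0.77).

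Smad3 encodes a receptor-activated SMAD that carries the signal to the nucleus. Its brighter probe set 1454960_at read 10.01, 9.88 and 9.93 in lines 31, 101 and 102, and 9.56, 9.27 and 9.45 in lines 72, 75 and 116. The difference was -0.52 ± 0.13 (SE), or 1.43-fold lower, and both genotypes were tight, with SDs of 0.07 and 0.14. The second probe set, 1450471_at, read 5.61, 5.71 and 5.40 in lines 31, 101 and 102, and 5.14, 5.29 and 5.20 in lines 72, 75 and 116, for a difference of -0.36 ± 0.13 (SE). Both probe sets gave the same direction but ordered the lines differently: line 75 was the lowest knockout line on 1454960_at and the highest on 1450471_at. Line 102 was the lowest wild-type line on the second and line 101 on the first.

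Ski encodes a corepressor that binds SMAD3 and SMAD4 and keeps their target genes silent. On 1429192_at it read 9.16, 9.11 and 9.07 in lines 31, 101 and 102, with a wild-type SD of 0.05, the smallest group SD of the 10 probe sets. In lines 72, 75 and 116 it read 8.60, 8.27 and 8.18. The difference was -0.76 ± 0.15 (SE), or 1.69-fold lower, and the gap between the nearest lines, 0.46, was 60.9% of it. Line 72 was the knockout line nearest to wild type.

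Pmepa1, deposited as Tmepai, encodes a membrane protein that TGF-beta induces and that in turn sequesters SMAD2 and SMAD3, a feedback brake on the pathway. On 1452295_at it read 10.73, 10.83 and 9.92 in lines 31, 101 and 102, and 8.42, 9.56 and 9.54 in lines 72, 75 and 116. Its difference of -1.32 ± 0.39 (SE), or 2.50-fold lower, was the largest among the genes that were lower. Both genotypes varied widely, with SDs of 0.50 and 0.66, because line 102 was low for a wild-type line and line 72 low for a knockout line. Against the wild-type mean line 72 was at -2.08 log2 units, line 75 at -0.93 and line 116 at -0.95. Without line 72 the difference was -0.94.

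Zeb2, deposited as Zfhx1b, encodes a zinc finger repressor of E-cadherin that also binds receptor-activated SMADs. On 1422748_at it read 5.02, 4.96 and 5.35 in lines 31, 101 and 102, and 4.07, 4.09 and 4.60 in lines 72, 75 and 116. The difference was -0.85 ± 0.20 (SE), or 1.81-fold lower, and line 116 was the knockout line nearest to wild type. The probe set was dim, at percentile 45.2 of the wild-type and 32.3 of the knockout arrays.

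**Figure D2:**
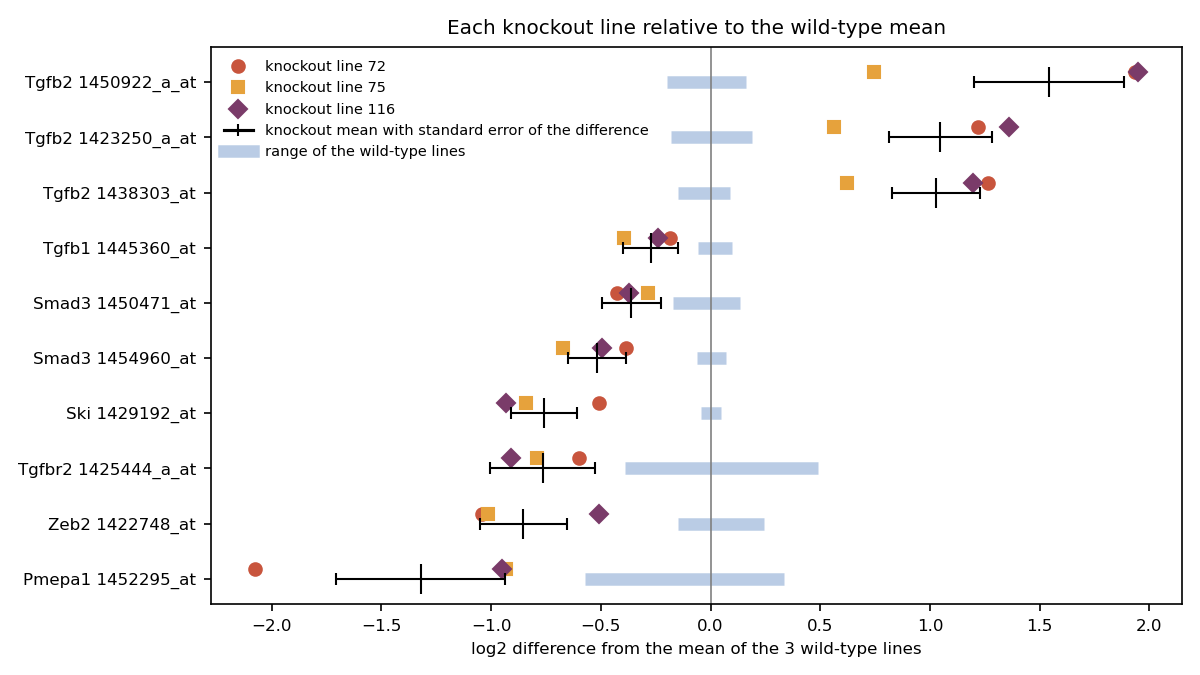
Log2 difference of each knockout line (72, 75 and 116) from the mean of the wild-type lines for the 10 probe sets, with the knockout mean, the standard error of the difference between genotypes in the fit, and the range of the wild-type lines as a bar around 0. Line 75 lies nearest to wild type on the 3 Tgfb2 probe sets, line 72 lies at -2.08 on Pmepa1, and line 116 is nearest to wild type on Zeb2.

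No single knockout line was nearest to wild type throughout. Line 75 was nearest on 5 of the 10 probe sets (Tgfb2, Pmepa1 and the dimmer Smad3 probe set), line 72 on 4 (Tgfb1, Tgfbr2, Ski and the brighter Smad3 probe set) and line 116 on 1 (Zeb2). Over the 5604 probe sets with a symbol, line 75 was nearest on 46.9%, line 72 on 29.4% and line 116 on 23.7%. Line 75 also scored nearest to the wild-type lines on the first principal component of all probe sets, at 8.08, with wild-type lines at 16.3 to 61.5 and lines 72 and 116 at -52.6 and -72.5.

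The profile over the 6 lines most like that of each gene was sought among 4493 probe sets whose symbol is in current use or a single synonym. The measure was the root mean square distance between profiles centred on their own mean. Since the genotypes lie apart for nearly all named genes, short distances reflect that shared split in part. For Tgfb2 (1423250_a_at) the nearest were Ndufab1, a mitochondrial acyl carrier protein, at 0.088 log2 units, the Wnt ligand gene Wnt5b at 0.10 and Arhgap6 at 0.12. The wild-type mean of Wnt5b was 5.55 and its knockout mean 6.58. Smad3 (1454960_at) lay nearest to the pseudouridine synthase gene Pus7 (0.044), Ergic3 (0.044) and Ywhag, a 14-3-3 protein gene (0.053). Ski lay nearest to the phosphoinositide phosphatase gene Mtmr2 (0.055), Zbtb3 (0.057) and the nuclear receptor coactivator gene Ncoa3 (0.063).

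In log2 units Pmepa1 had the most distant neighbours of the 7 genes, but this distance grows with the size of a gene's difference. The Pearson r over the 6 lines was 0.979 for its nearest neighbour. For that of Tgfb1, at the shortest distance, it was 0.985. Among the neighbours of Pmepa1 were Nedd4, a ubiquitin ligase gene, at 0.18, and Hdlbp at 0.19. The wild-type mean of Nedd4 was 10.91 and its knockout mean 9.69, which is -1.22 beside -1.32 for Pmepa1. Zeb2 was nearest to Slc35c1, a GDP-fucose transporter gene (0.074), the Polycomb gene Phc2 (0.080) and Phf20 (0.11). Tgfbr2 was nearest to Mphosph9 (0.070), the kinesin gene Kif1b (0.11) and the nuclear receptor gene Nr2c2 (0.11). Tgfb1 was nearest to Snrk (0.034), Taok3 (0.036), both kinase genes, and the spectrin gene Sptb (0.041).

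The wider pathway was followed in 5 lists of ligands, receptors, SMAD regulators, targets and genes of epithelial-mesenchymal transition. Besides the 7 genes they hold 175 genes, of which 46 had a named probe set, and 22 of these were higher and 24 lower in the knockout lines. Each gene is represented by its probe set of highest mean. Crebbp alone passed over all probe sets (limma, adjusted p = 0.0398), so 1 gene fell and 0 rose, where 0.107% of all probe sets passed (0.00888% higher and 0.0977% lower). The median difference of the 46 was -0.29 log2 units, where that of all probe sets with a symbol was -0.27. Since a symbol requires a small p-value, these counts cover genes that already differed and not the lists as a whole. The counts given below per list at an unadjusted p under 0.05 follow largely from that rule and test nothing. The share of 0.107% is over all probe sets, named or not, and so is no like base for the 46.

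Among 38 ligand and latency genes, 8 others were named, 5 higher and 3 lower, with 0 called (limma; 6 had an unadjusted p below 0.05). Of the latent TGF-beta binding proteins, which tether the latent ligand in the matrix, Ltbp3 was at 11.34 ± 0.38 in wild type and 10.30 ± 0.37 in knockout (adjusted p = 0.155). Ltbp4 was at 6.31 ± 0.13 and 5.70 ± 0.10 (adjusted p = 0.117), while the dim Ltbp1 probe set differed by 0.40 the other way (adjusted p = 0.279). Gdf11, an activin-like ligand, was at 4.94 ± 0.10 and 5.55 ± 0.14 (adjusted p = 0.120), and Lefty1, an antagonist of Nodal, at 8.02 ± 0.09 and 8.80 ± 0.38 (adjusted p = 0.167). The BMP antagonist gene Nog was dim and differed by 0.30 (adjusted p = 0.283).

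Besides Tgfbr2, 2 of 22 receptor genes were named, both with an unadjusted p under 0.05 in limma, and 0 passed. Tgfbr3, the coreceptor betaglycan that presents TGF-beta 2 to the type II receptor, was at 7.12 ± 0.33 in wild type and 6.51 ± 0.19 in knockout (adjusted p = 0.238). Strap, whose protein binds the receptors together with SMAD7 and dampens their signal, was at 6.50 ± 0.33 and 7.58 ± 0.15 (adjusted p = 0.0885).

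The 47 SMAD and regulator genes held 20 named genes besides Smad3, Ski and Pmepa1, 7 higher and 13 lower. Crebbp, the acetyltransferase CBP that SMADs recruit to targets, fell by 1.79 log2 units from 9.70 ± 0.20 to 7.91 ± 0.24. Of its other named probe sets 1459804_at also passed, at -1.93 (limma, adjusted p = 0.0346), and 1434633_at differed by -0.16. The call on the brightest was lost with array medians set equal and with an equal-variance test. It was also lost when any single line other than knockout line 75 was left out. Smad5, a SMAD of the BMP branch, was at 6.09 ± 0.07 in wild type and 5.40 ± 0.03 in knockout (adjusted p = 0.0818). Ctdsp1, a phosphatase that acts on SMAD linkers, was at 11.30 ± 0.06 and 10.21 ± 0.45 (adjusted p = 0.114). Rock1, a kinase downstream of RhoA, was at 6.66 ± 0.27 and 4.53 ± 0.56 (adjusted p = 0.0616), and Ppp2r1b, a scaffold of protein phosphatase 2A, at 9.76 ± 0.23 and 8.61 ± 0.06 (adjusted p = 0.0581). Pias1, a SUMO ligase, differed by -0.60 (adjusted p = 0.119) and the histone deacetylase gene Hdac1 by -0.58 (adjusted p = 0.123).

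Target genes of the pathway were rarely named: 5 of 39 besides Pmepa1, 2 higher and 3 lower, with 0 called (limma, all 5 at an unadjusted p under 0.05). The inhibitory SMAD gene Smad7 was at 8.38 ± 0.05 in wild type and 7.94 ± 0.25 in knockout (adjusted p = 0.277), with a second probe set at -0.51. Smad7 is also on the list of SMADs and regulators and is counted on both. The tropomyosin gene Tpm1 was at 7.60 ± 0.08 and 6.70 ± 0.32 (adjusted p = 0.106), and Junb at 6.86 ± 0.26 and 6.24 ± 0.08 (adjusted p = 0.170). Jag1, a Notch ligand gene, and Tsc22d1 differed by 0.37 and 0.43 (adjusted p = 0.311 and 0.192), both on dim probe sets.

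Beside Zeb2, 12 of 40 genes of epithelial-mesenchymal transition were named, 7 higher and 5 lower, with 0 called (limma, 10 at an unadjusted p under 0.05). Cdh1, the E-cadherin gene that ZEB2 is known to repress, was at 7.87 ± 0.14 in wild type and 7.16 ± 0.08 in knockout (adjusted p = 0.0941). Cdh1 was thus lower where Zeb2 was lower, on only 1 named probe set for each gene, that of Zeb2 dim. Tcf3, deposited as Tcfe2a, another E-box binding factor, was at 5.36 ± 0.03 and 4.51 ± 0.26 on a dim probe set (adjusted p = 0.0935). The epithelial adhesion gene Epcam was at 7.99 ± 0.19 and 8.79 ± 0.05 (adjusted p = 0.0866). Cldn1 was at 9.22 ± 0.35 and 10.05 ± 0.19 (adjusted p = 0.155) and Pkp2, a desmosome gene, at 5.33 ± 0.37 and 6.87 ± 0.66 (adjusted p = 0.130). Grhl2, an epithelial transcription factor gene, was at 8.33 ± 0.38 and 9.23 ± 0.22 (adjusted p = 0.153), with a second probe set that differed by -0.46.

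**Figure D3:**
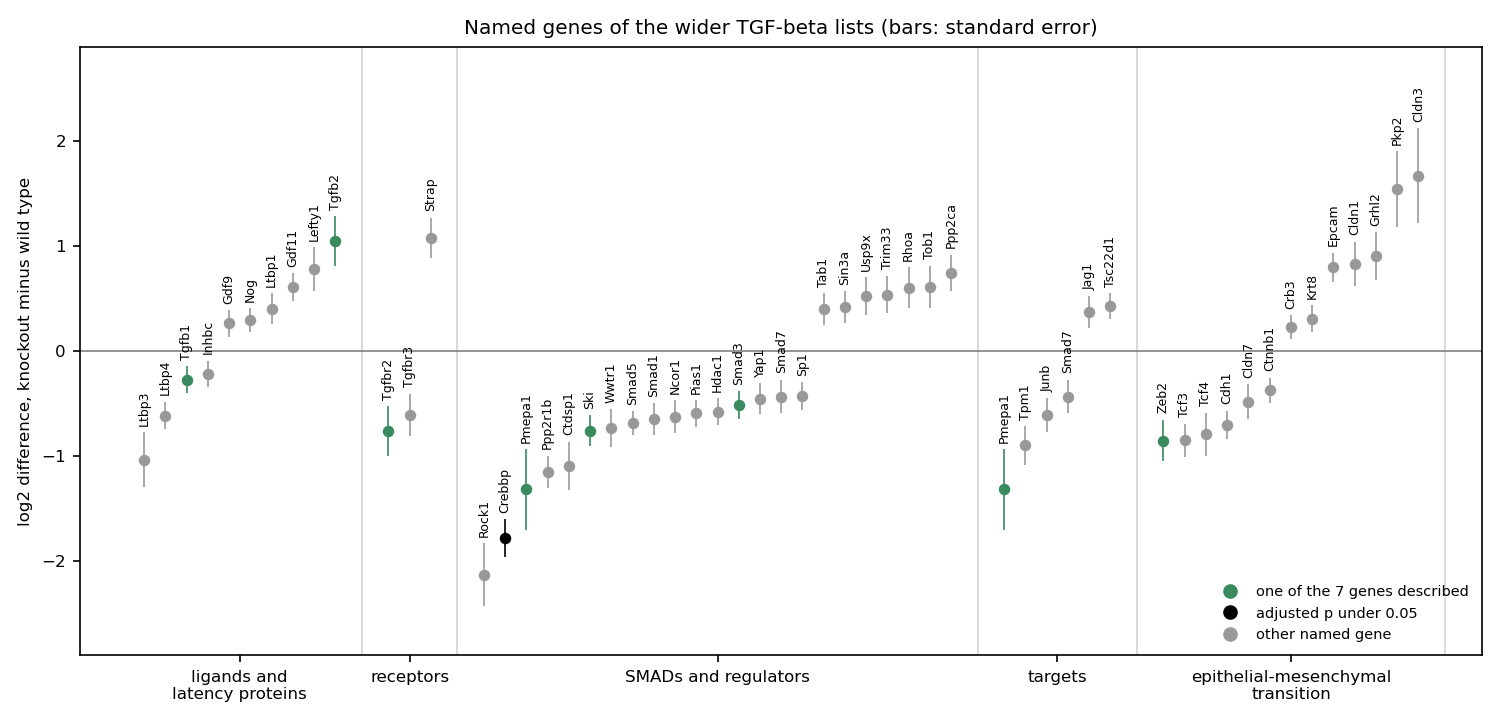
Log2 difference, knockout minus wild type, of each named gene on the 5 wider lists, with the standard error of the fit as a bar. Crebbp, at -1.79, is marked as the sole gene of the 46 past the threshold, and 22 of the 46 other genes lie above 0. Smad7 and Pmepa1 are on both the regulator and the target list and are shown on each.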

How the data were processed

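RNA of 6 cell lines was amplified, labelled with biotin and hybridised to 1 array each, per the labels' protocols. Log2 values of 45101 probe sets were deposited in a workbook sheet and again in the series value table, which differ by at most 5.0e-09. How the array signals were background-corrected, summarised and normalized is not stated in the labels or headers. The same sheet holds the authors' deposited p-value for every probe set and, at p under 0.05, a log2 difference, a B score and most gene symbols; a signed fold score was deposited in further sheets. Symbols were updated through RefSeq (GRCm38.p6): 4106 of 4485 were current or a single synonym.

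The deposited values were fitted with limma 3.58.1 (R 4.3.3; lmFit, eBayes, no covariate) over 45037 probe sets, 64 controls left out, with Benjamini-Hochberg adjustment over all and a threshold of 0.05. The fit was also run on simulated arrays with errors independent between probe sets, which cannot show how leaving out a line shifts the calls. With 3 arrays per group the number of arrays limits precision, and the median standard error was 0.18 log2 units. The 7 genes and the lists were chosen with earlier results of these data known. Named are all probe sets of the 7 genes, Akt1, Krt8 as a marker check, the 3 nearest profiles per gene (1 of them is not reported here) and, per list, genes past the threshold and up to 6 others of smallest p. Alternatives were median centring, quantile normalization, leaving out dim probe sets or each line, an intensity trend, a per-probe-set test, the value table and other choices among the probe sets of a gene.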

Additional observations from a re-analysis of the deposited data

How the results depend on the processing

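The 92 recomputed differences of the 10 probe sets kept their sign, which is no sign of stability: most left out a line, where groups that do not overlap fix the sign, and the value table holds the same values. The range over these was 1.34 to 1.94 for Tgfb2 (1450922_a_at), 0.89 to 1.29 (1423250_a_at) and 0.91 to 1.23 (1438303_at), -0.96 to -0.52 for Tgfbr2 and -1.61 to -0.94 for Pmepa1. As the 7 genes were chosen by these values, the number of their probe sets past the threshold tests nothing. It was 0, and ran from 0 to 3 with a line left out. The 3 were all probe sets of Tgfb2 and passed only without knockout line 75. The number of the 10 probe sets that differed at least 2-fold ran from 1 to 4 with a line left out. Leaving out dim probe sets removed Tgfb1 and Zeb2 from the fit, and kept 36 of the 46 wider genes in it. Over all probe sets 48 passed, 3 with an equal-variance test per probe set, and between 1 and 327 with a line left out, the highest without knockout line 75. Of the 46 wider genes 1 passed, 0 with median centring, with the equal-variance test or when named probe sets of each gene were averaged, and 0 to 3 with a line left out. The cause of these shifts was not tested. No paired analysis was possible because the line numbers of the genotypes share no number. The 3 arrays per genotype limit precision, and the deposited values do not give the signal over background.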

Other observations

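Further named genes of the lists differed as follows, with none past the threshold (limma). Smad1, of the BMP branch, was at 5.00 ± 0.19 in wild type and 4.35 ± 0.14 in knockout on a dim probe set (adjusted p = 0.133). The coactivators Wwtr1, on a dim probe set, and Yap1 differed by -0.74 and -0.45 (adjusted p = 0.151 and 0.233). Trim33, a ubiquitin ligase gene that acts on SMAD4, was 0.54 higher in the knockout lines (adjusted p = 0.239), and Usp9x, a deubiquitinase gene of the same step, 0.52 higher (adjusted p = 0.253). Cldn3 was at 7.20 ± 0.34 and 8.87 ± 0.92 (adjusted p = 0.171), while Cldn7 differed by -0.48 (adjusted p = 0.258). Probe sets disagreed in sign for Rhoa, with 0.60 on the brightest and -0.25 and -1.55 on others, for Ppp2ca, with 0.75 and -0.37, and for Sin3a, with 0.42, 0.53 and -0.43. All 4 named probe sets of the corepressor gene Ncor1 were lower in the knockout lines, by -0.35 to -0.78.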
